A study of Mus musculus with 2 samples.

Results

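The 34 genes described here are interferon response genes, transcribed in cells that have met an interferon, and their RNA was followed across the cell classes of the diabetic and control mouse aorta. They were chosen by name: all 34 symbols were found among the 19357 genes present in at least 1 of the 2 deposited count matrices. The tested animals were male Apoe-/- mice on the C57BL/6 background made diabetic with streptozotocin, a toxin of insulin-producing beta cells, given at 55 mg/kg/day for 5 days from 6 weeks of age. The control animals were male Apoe-/- mice of that background that received citrate vehicle on the same schedule. Both groups lack apolipoprotein E, were followed for 10 weeks and were 17 weeks old by the labels, so no group had normal lipoprotein clearance. Cells of the aortae of 4 mice were pooled into 1 library for each group, after enzymatic digestion and a sort for live cells, and the series title places the study in work on the AP-1 transcription factor complex in diabetic atherosclerosis.

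Each captured RNA molecule is marked by a unique molecular identifier (UMI). The diabetic library had 17647604 UMIs over 3458 barcodes and the control library 15314749 UMIs over 4215 barcodes. The authors' annotation gave a class to 2524 diabetic and 3060 control cells, with medians of 4477.5 and 3760 UMIs per cell. The classes compared are smooth muscle cells (VSMCs-1, VSMCs-2), fibroblasts (Fib-1, Fib-2, Fib-3), endothelial cells (ECs) and macrophages (Mac), each with at least 50 cells in each library, and foam cells, monocytes, monocyte-derived dendritic cells (MoDC), T, NKT and B cells are given as levels only. In the compared classes every marker checked for the class's own type was detected in both libraries. The 2 libraries shared 15 barcode sequences, of which 8 carried an annotation in both. Smooth muscle class VSMCs-2 made up 33.9% of annotated diabetic cells and 16.2% of annotated control cells, whereas macrophages made up 9.07% of diabetic and 16.7% of control cells.

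Interferons are secreted proteins that warn cells of infection or nucleic acid damage. Type I interferons bind the Ifnar1-Ifnar2 receptor and activate a complex that contains Stat2 and Irf9 and binds the interferon-stimulated response element (ISRE) in promoters. Interferon gamma, the type II interferon, acts through the gamma-activated site (GAS) and through Irf1. The 34 members were grouped by role: the factors Irf1, Irf7, Irf9 and Stat2, a core type I list of 16 genes that includes the Ifit genes, Isg15, Rsad2 and also Irf7, 7 membrane and other effectors such as Ifitm3, Ly6e and Bst2, and 8 GTPases of the Gbp and Irg families, which interferon gamma induces strongly.

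The response element itself can be read in the promoters of members that carry calls below or stand for their family. RefSeq promoter entries on GRCm38.p6, the assembly also called mm10, existed for 25 of the 34 members, and the 250 bases before each start site were searched on both strands for the ISRE core, written as GAAA, any 2 bases, GAAA (on the other strand TTTC, any 2 bases, TTTC). This motif was found for 14 of the 25 members (56.0%), against 936 of 27025 genes in the whole table (3.46%). The stretches shown are 60 bases each, written 5′ to 3′ on the gene's strand, with every match in capitals; a match is a description of letters and not of binding. Isg15 (chr4:156200856-156200915, minus strand) had 3 overlapping matches, Ifit3 (chr19:34583365-34583424, plus strand) and its near copy Ifit3b (chr19:34607761-34607820, plus strand) had the same letters throughout this stretch, and Rsad2 (chr12:26456538-26456597, minus strand) and the GTPase gene Gbp2 (chr3:142620579-142620638, plus strand) had 1 match each.
Isg15: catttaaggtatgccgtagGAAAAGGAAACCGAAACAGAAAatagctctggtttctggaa
Ifit3: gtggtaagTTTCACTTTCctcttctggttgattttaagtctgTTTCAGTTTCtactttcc
Ifit3b: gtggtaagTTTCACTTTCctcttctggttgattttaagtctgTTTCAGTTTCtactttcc
Rsad2: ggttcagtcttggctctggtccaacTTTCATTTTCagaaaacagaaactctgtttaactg
Gbp2: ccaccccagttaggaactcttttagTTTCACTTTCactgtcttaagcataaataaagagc
The other members with a match were Bst2, Gbp3, Gbp7, Ifi203, Ifit1, Igtp, Irgm1, Oas1a and Stat2. The GAS letters TTCNNNGAA were found for 6 of the 25 members (24.0%), namely Bst2, Gbp7, Ifit2, Igtp, Irf1 and Oas1a, against 8.13% of all genes in the table. The searched window of Irf7 held neither pattern. The Ifit3 and Ifit3b transcripts were 98.0% identical over 1697 aligned bases, so the split of reads between them is uncertain. Members without a promoter entry were Ifi27l2a, Ifi27, Usp18, Zbp1, Iigp1, Gbp4, Ly6e, Rtp4 and Mx1.

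Among classes with enough UMIs of a member, endothelial cells carried the highest levels of most members in both libraries. Levels are given as CPM, the UMIs of a gene scaled to the total UMIs of its class in that library, without scaling for gene length, because 3′ UMI counting reads 1 tag per molecule. Counting for each member only the classes and libraries where it had at least 10 UMIs, ECs held the highest level of 19 members in the diabetic and 20 members in the control library, macrophages of 4 and 8, and monocytes of 3 and 1. This minimum leaves out many members in the small classes, so the lead of ECs holds mainly among the larger classes. The 34 members summed to 8497 CPM in diabetic and 7792 CPM in control ECs, and to 6862 and 7828 CPM in macrophages. In VSMCs-2 the same sum was 1083 CPM in the diabetic and 1174 CPM in the control library, and in VSMCs-1 it was 1364 and 1853 CPM. Fibroblasts lay between these, from 3994 to 4533 CPM over the diabetic and from 4099 to 4998 CPM over the control classes.

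**Figure D1:**
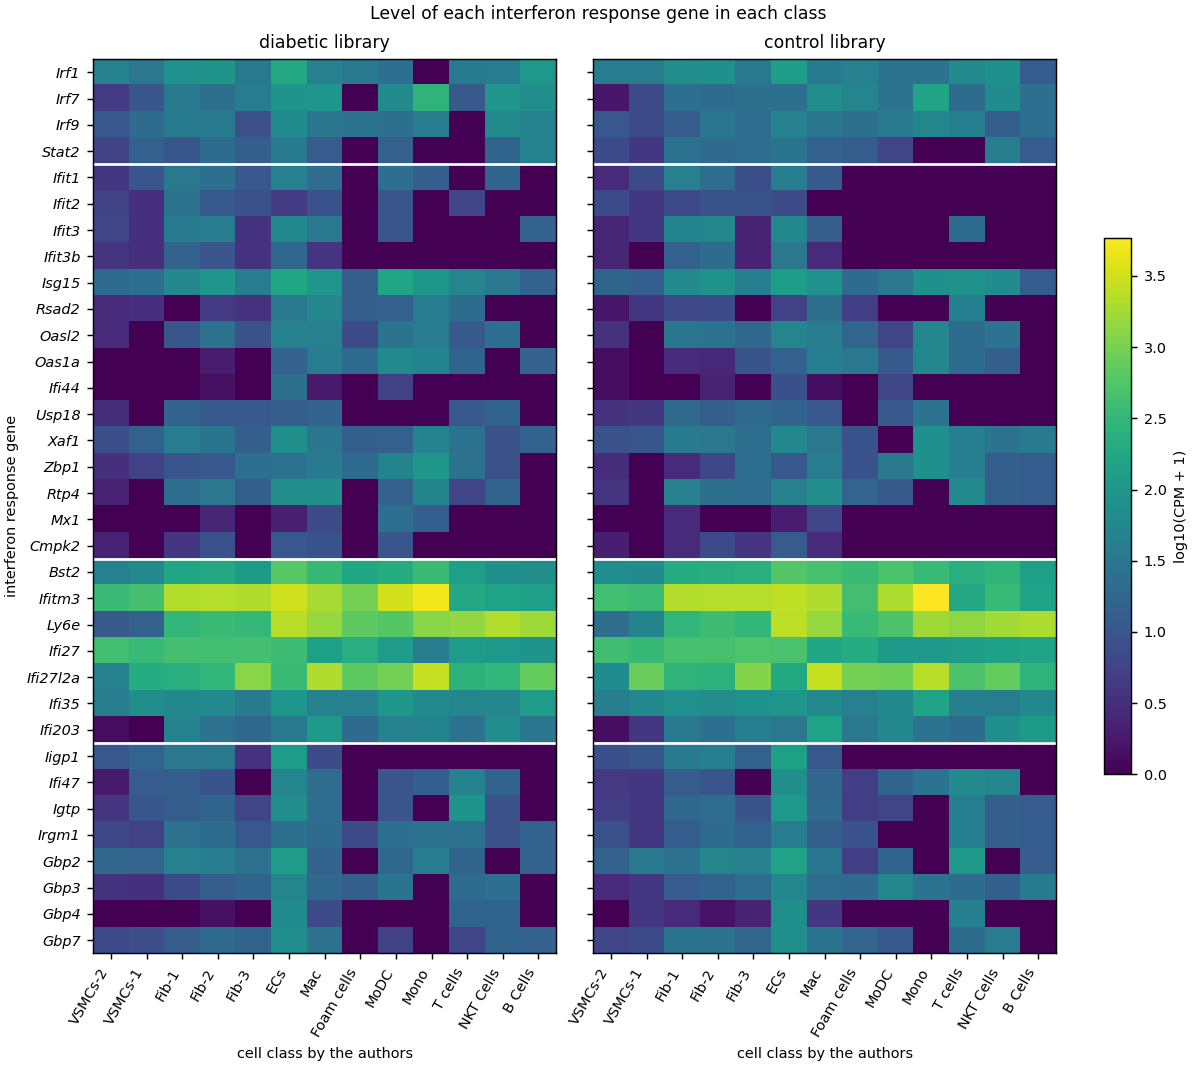
Level of each of the 34 interferon response genes (rows, by role) in each cell class (columns), with the diabetic library in the left and the control library in the right panel, as colour for log10(CPM + 1). Ifitm3, Ly6e, Ifi27 and Ifi27l2a fill the top of the scale in many classes, and most of the GTPases have their highest level in ECs.

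Most of the summed level came from a few abundant effectors. Ifitm3, a membrane protein that blocks virus fusion, had 3072 CPM in diabetic and 2585 CPM in control ECs, and 1884 and 2055 CPM in macrophages. Ly6e, a lipid-anchored surface protein, had 2389 and 2445 CPM in ECs and 1520 and 1496 CPM in macrophages. Ifi27l2a, a small mitochondrial protein gene, was highest among the larger classes in macrophages, with 2077 CPM in diabetic and 2760 CPM in control cells. The 16 core type I genes together reached 689 CPM in diabetic and 492 CPM in control ECs, 551 and 437 CPM in macrophages, and 56.7 and 47.1 CPM in VSMCs-2. The lowest core sums of both libraries were thus in smooth muscle, where VSMCs-1 had 68.8 and 46.3 CPM.

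Over all annotated cells pooled, the diabetic library had less RNA of these genes than the control library. A gene is called here when its ratio of diabetic to control CPM is at least 1.5-fold in either direction, the exact 95% interval of the ratio for counting error excludes 1, and the 2 libraries hold at least 10 UMIs together. With 1 library per group these calls compare the 2 libraries, not diabetic with control mice in general, and the intervals cover counting error only. None of the 34 members was called higher in the pooled diabetic cells, where 8.48% of all genes were called higher, and 12 were called lower, where 9.55% of all genes were. The 12 were Ifit3b, Bst2, Oasl2, Oas1a, Ifi27l2a, Usp18, Ifi203, Ifi47, Gbp3, Gbp7, Igtp and Rtp4, and 28 of the 34 ratios lay below 1, with a median log2 ratio of -0.46 against 0.02 over all genes. The summed level of the 34 was 3176 CPM in diabetic and 4594 CPM in control cells, a ratio of 0.691 (95% interval 0.682 to 0.70).

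That pooled deficit moved with the share of the classes. When every class was given the same weight in both libraries, the ratio of the 34-gene sum was 0.964. For the core type I list the pooled ratio was 0.803 (0.763 to 0.845), from 223 CPM in diabetic and 277 CPM in control cells, and its class-weighted ratio was 1.13, on the other side of 1. For the 8 GTPases the pooled sums were 117 CPM in diabetic and 175 CPM in control cells, a ratio of 0.672 (0.628 to 0.719). The comparisons that follow are therefore made within classes.

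**Figure D2:**
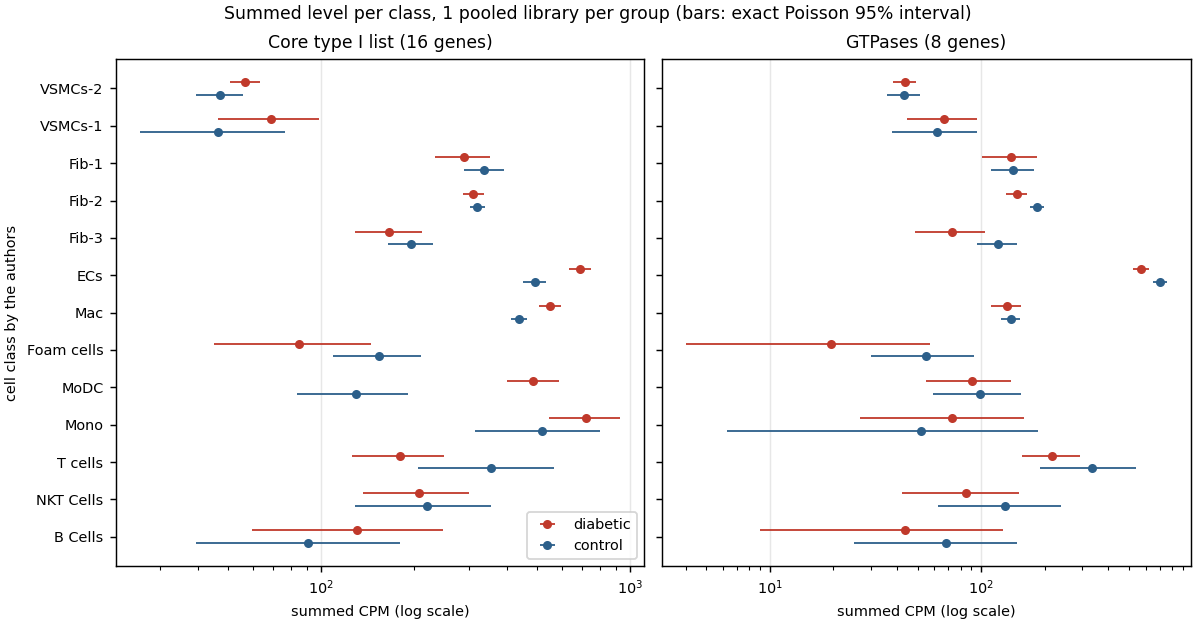
Summed level (CPM, log axis) of the 16 core type I genes and of the 8 GTPases in each cell class, with the diabetic library drawn above the control library and bars for the exact 95% Poisson interval. In ECs the core sum is 689 CPM in diabetic against 492 CPM in control cells, while the GTPase sum is 573 against 703 CPM.

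Within endothelial cells the calls were all of higher levels in the diabetic library. Of 33 members with enough UMIs, 6 were called higher in the diabetic library (Irf7, Rsad2, Ifi27l2a, Ifi44, Zbp1 and Rtp4), beside 4.11% of all genes in that class, and none was called lower, beside 3.24%. Of 15 core genes measured, 5 were called, 9 ratios lay above 1 and 6 below. The median log2 ratio was 0.10 over the core list and -0.26 over the GTPases, against -0.01 over all genes in ECs. The core sum had a ratio of 1.40 (1.24 to 1.58), and the GTPase sum one of 0.815 (0.726 to 0.914). These rest on 228 diabetic and 366 control cells with medians of 3504 and 2867 UMIs.

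Irf7, the factor that amplifies type I interferon production, was the only one of the 4 member factors called in ECs. RefSeq places its gene at chr7:141263183-141266499. It had 76 UMIs in diabetic and 26 UMIs in control ECs, which is 89.0 CPM (exact Poisson 95% interval 70.1 to 111) and 23.8 CPM (15.5 to 34.9). The ratio was 3.74 (2.37 to 6.09), and the UMIs lay in 52 diabetic cells (22.8%) and 19 control cells (5.19%). With every cell thinned to 1000 UMIs, so that depth is equal, Irf7 was seen in 20 of 220 diabetic ECs (9.09%) and 8 of 343 control ECs (2.33%). The fullest cell held 5.26% of the diabetic and 23.1% of the control Irf7 UMIs. Smooth muscle class VSMCs-2, with little Irf7 RNA, gives a reading of free RNA for droplets of its depth only. After thinning it held Irf7 in 4 of 856 diabetic cells (0.467%) and in 0 of 496 control cells (Clopper-Pearson upper limit 0.741%). Its medians before thinning were 6523 and 5547 UMIs, above those of ECs, so it sets no upper limit for ECs. Haemoglobin-rich barcodes without a class held Irf7 in 16 of 487 diabetic (3.29%) and 1 of 28 control cases (3.57%) after thinning.

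The other 3 factors were measured nearer to parity. Irf1, which interferon gamma and other stimuli induce, had 185 CPM in diabetic and 129 CPM in control ECs, a ratio of 1.43 (1.14 to 1.81), under the 1.5-fold call. Irf9, a DNA-binding partner of Stat2, had 64.4 and 45.7 CPM, a ratio of 1.41 (0.942 to 2.11). Stat2 itself had 35.1 and 27.4 CPM, a ratio of 1.28 (0.746 to 2.20). All 4 factor ratios were above 1 in ECs and only that of Irf7 was called.

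Among the induced effectors of ECs the pattern was uneven. Rsad2, the enzyme viperin that makes a chain-terminating nucleotide, had 28 UMIs in diabetic and 5 UMIs in control ECs, or 32.8 and 4.57 CPM, a ratio of 7.17 (2.73 to 23.8). Ifi44, an interferon-induced antiviral gene, had 23.4 and 7.32 CPM, a ratio of 3.20 (1.35 to 8.40). Both are carried by few cells, Rsad2 by 14 diabetic and 5 control cells and Ifi44 by 18 and 8. One diabetic cell held 35.7% of the Rsad2 UMIs there, and without the fullest cell of each library the ratio was 5.76.

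Zbp1, a sensor of Z-form nucleic acid that can start cell death, had 24.6 CPM in diabetic and 10.1 CPM in control ECs, a ratio of 2.44 (1.13 to 5.61). Rtp4, an interferon-induced receptor transporter protein, had 72.6 and 42.1 CPM, a ratio of 1.73 (1.16 to 2.58), in 45 diabetic and 38 control cells. Ifi27l2a had 368 and 190 CPM, a ratio of 1.93 (1.62 to 2.31), in 65 diabetic and 70 control cells. Its RefSeq span covers that of Ifi27 on chromosome 12, whereas the GENCODE annotation of the same build sets the pair apart on opposite strands, and which one the counting used is not known. Ifi27 had 390 CPM in diabetic and 487 CPM in control ECs, a ratio of 0.801 (0.697 to 0.921).

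Isg15, the ubiquitin-like protein that is joined to other proteins during the response, had 145 UMIs in diabetic and 136 UMIs in control ECs. That is 170 and 124 CPM, a ratio of 1.36 (1.07 to 1.74), and 73 diabetic cells (32%) and 61 control cells (16.7%) held at least 1 Isg15 UMI. The share of cells thus differed more than the level did. After thinning it was 17.3% in diabetic and 6.71% in control ECs, beside 1.64% and 1.41% in VSMCs-2. Among the core members not called in ECs were the RNA-binding Ifit1, with 42.2 CPM in diabetic and 39.3 CPM in control cells, and Ifit3, with 56.2 and 56.7 CPM. Ifit3b had 17.6 and 30.2 CPM, a ratio of 0.582 (0.294 to 1.10). Single cells weighed on the control side of this family: 1 control cell held 37.2% of the Ifit1, 40.3% of the Ifit3 and 30.3% of the Ifit3b UMIs.

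The abundant membrane genes differed little in ECs. Ifitm3 had a ratio of 1.19 (1.13 to 1.25) and was seen in 224 of 228 diabetic and 354 of 366 control cells. Bst2, the tetherin that holds budding virus at the cell surface, had 603 and 564 CPM, a ratio of 1.07 (0.95 to 1.21). Ly6e had a ratio of 0.977 (0.922 to 1.04). All 3 intervals lie within 1.5-fold of parity.

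All 8 GTPases had lower levels in diabetic than in control ECs, and none of them passed the call. Iigp1, which attacks the vacuoles of parasites, had 118 CPM in diabetic and 138 CPM in control ECs, and Gbp2, a guanylate-binding protein that coats such vacuoles, had 121 and 147 CPM. Igtp had 72.6 and 99.7 CPM, a ratio of 0.728 with an upper interval end of 1.00, and Irgm1, a regulator of the family, had 23.4 and 38.4 CPM, a ratio of 0.610 (0.339 to 1.06). Ifi47 had 52.7 and 75.0 CPM, a ratio of 0.702 (0.477 to 1.02), while Gbp3, Gbp4 and Gbp7 had ratios of 0.939, 0.859 and 0.932. The 8 ratios are not independent readings, because the same cells give them.

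**Figure D3:**
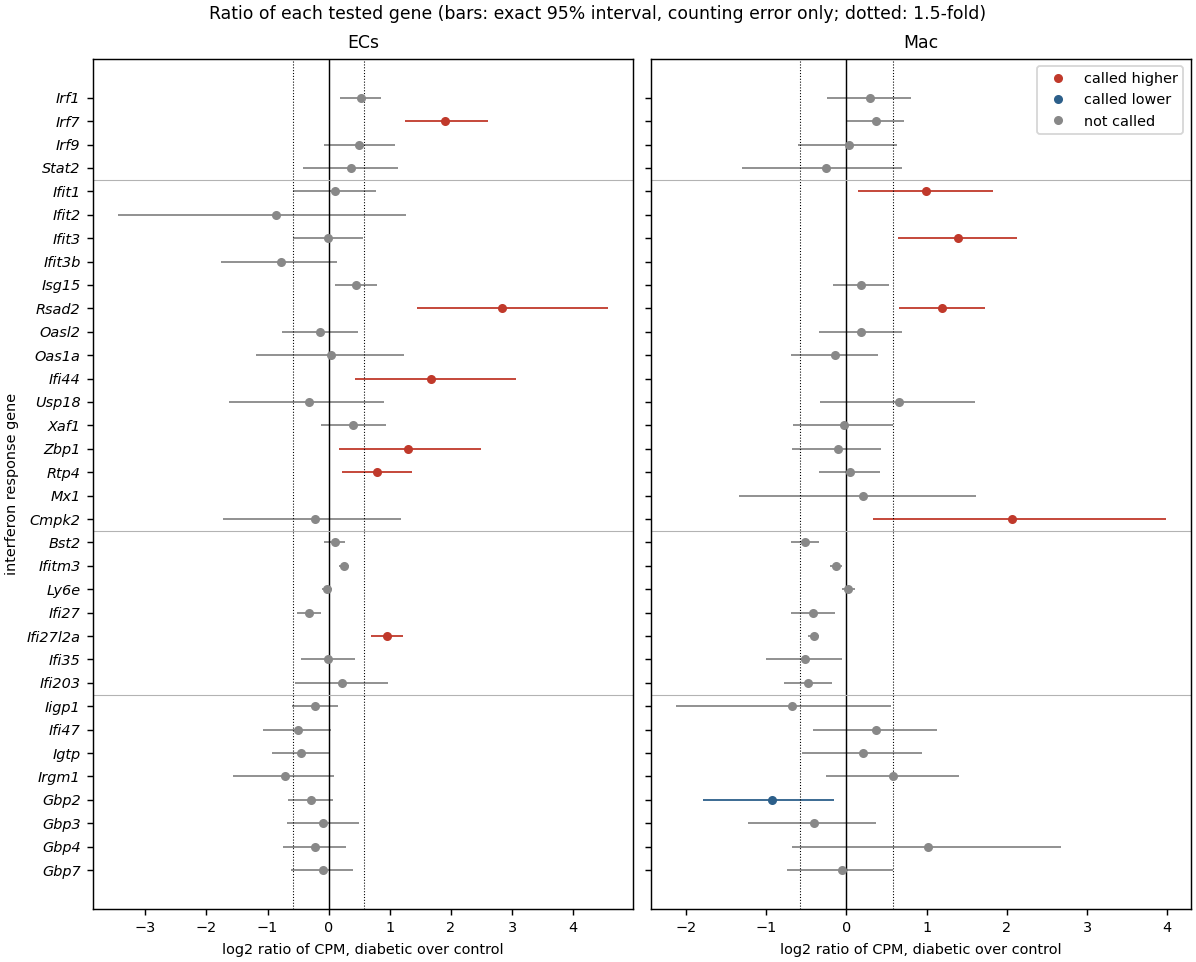
Log2 ratio of diabetic to control CPM for each tested member in ECs and in Mac, with the exact 95% interval for counting error; red points are called higher, blue points called lower, grey points not called, and the dotted lines mark 1.5-fold. Irf7, Rsad2, Ifi44, Zbp1, Ifi27l2a and Rtp4 are called in ECs, where the 8 GTPases all lie below 1, and Ifit1, Ifit3, Rsad2, Cmpk2 and Gbp2 are called in Mac.

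Several marker lists of other cell types differed between the EC pools in the same direction as the core list. The 5 neutrophil markers summed to 279 CPM in diabetic ECs, with 5 of 5 detected, and to 10.1 CPM in control ECs, with 2 of 5 detected. Adipocyte markers summed to 112 CPM (5 of 5 detected) in diabetic and 2.74 CPM (2 of 5 detected) in control ECs, and monocyte-dendritic markers to 70.3 and 10.1 CPM with 2 of 7 detected in both. Macrophage markers went the other way, with 187 CPM in diabetic and 384 CPM in control ECs and 8 of 8 detected in each. So did foam cell (1723 and 2348.5 CPM), fibroblast (913 and 1130 CPM) and erythroid markers (7635 and 8019 CPM), and the scarcer mesothelial and NK markers. The part of these RNAs in the core difference was tested only by leaving cells out: without the tenth of ECs in each library with most markers of other types, Rsad2 had a ratio of 3.39 and Zbp1 one of 1.66 that was no longer called, and Ifi47 and Igtp were then called lower.

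Immediate early genes, which respond within minutes to stimuli that include tissue digestion, differed in the same direction in ECs. Of 12 such genes, 5 were called higher (Ier2, Junb, Ier3, Fosb and Dusp1), beside 4.11% of all genes in ECs, with ratios between 1.55 and 2.41, and their median log2 ratio was 0.57. All 12 ratios were above 1. Their part in the differences of the interferon response genes was not tested.

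In macrophages mostly other members were called. Of 31 members with enough UMIs, 4 were called higher in the diabetic library (Ifit1, Ifit3, Rsad2 and Cmpk2), beside 8.16% of all genes, and 1, Gbp2, was called lower, beside 4.54%. The median log2 ratio of the 31 was 0.03 against 0.08 over all genes. The core sum was 551 CPM in 229 diabetic cells and 437 CPM in 510 control cells, a ratio of 1.26 (1.14 to 1.39), while the sum of all 34 had a ratio of 0.877 (0.854 to 0.900).

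Rsad2 had 61 UMIs in diabetic and 62 UMIs in control macrophages, or 54.0 and 23.7 CPM, a ratio of 2.28 (1.57 to 3.30). Ifit3 had 31 and 11.8 CPM, a ratio of 2.61 (1.57 to 4.38), and Ifit1 had 21.2 and 10.7 CPM, a ratio of 1.98 (1.10 to 3.55). One diabetic cell held 33.3% of the Ifit1 UMIs, and without the fullest cell of each library the ratio was 1.54 and not called. Cmpk2, a mitochondrial nucleotide kinase whose gene neighbours Rsad2 on chromosome 12, had 9 UMIs in diabetic and 5 UMIs in control macrophages, a ratio of 4.17 (1.25 to 15.8). Ifit2 had 9 UMIs in diabetic macrophages and 0 in control macrophages. Set against the 3 UMIs that a count of 0 allows, Ifit2 was at least 6.95-fold higher in the diabetic cells, but 1 cell held 44.4% of its UMIs and the gene missed the minimum of 10 UMIs.

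Irf7 was present in both macrophage pools, with 92.9 CPM in diabetic and 71.9 CPM in control cells, a ratio of 1.29 (1.01 to 1.65). Isg15 had 91.2 and 80.3 CPM, a ratio of 1.14 (0.888 to 1.44). Thus the EC gap in Irf7, a ratio of 3.74, had no counterpart of that size in macrophages, although the difference between the classes was not tested. For Isg15 the EC ratio given above lay within the macrophage interval. Diabetic ECs reached 89.0 CPM of Irf7, close to the level of either macrophage pool, while control ECs were at 23.8 CPM.

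The effectors of macrophages lay mostly below 1, in 6 of 7 cases. Ifi27l2a had a ratio of 0.752 (0.718 to 0.788), Bst2 had 328 CPM in diabetic and 469 CPM in control cells, a ratio of 0.699 (0.621 to 0.786), and Ifi203, a PYHIN family gene, had 109 and 152 CPM, a ratio of 0.717 (0.581 to 0.880). These miss the 1.5-fold threshold, and with TMM scaling, which moved all macrophage ratios by -0.12 on the log2 scale, Bst2, Ifi35 and Ifi203 were called lower with Gbp2. Gbp2 had 15 CPM in diabetic and 28.7 CPM in control macrophages, a ratio of 0.525 (0.291 to 0.897). The GTPase sum was 132 and 138 CPM, and the other 7 GTPases were not called.

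Markers of other types also differed between the macrophage pools. Neutrophil markers summed to 5271 CPM in diabetic and 3679 CPM in control macrophages, T cell markers to 712 and 351 CPM and smooth muscle markers to 919 and 318 CPM. Erythroid, plasmacytoid dendritic, mast and pericyte markers differed in the same direction. NK (156 and 323 CPM), B cell (396 and 597 CPM), fibroblast (748 and 894 CPM) and endothelial markers (42.5 and 67.3 CPM) went the other way. So did the scarcer Schwann, adipocyte and mesothelial markers. Monocyte-dendritic markers, counted among the macrophages' own types, summed to 694 and 381 CPM. The 8 macrophage markers summed to 25081 CPM in diabetic and 40308 CPM in control cells. The part of the RNAs of other types in the differences above was tested only by leaving cells out. Without the tenth of macrophages in each library with most markers of other types, Ifit3, Rsad2 and Cmpk2 were still called higher. Ifit1 was then not called, and Gbp2 was still called lower.

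Smooth muscle cells held little RNA of the inducible members. In VSMCs-2, with 856 diabetic and 496 control cells, 29 members had enough UMIs, 2 were called higher (Ifit3 and Irf7) beside 4.33% of all genes, and 3 were called lower (Bst2, Ifi47 and Ly6e) beside 4.08%. Irf7 had 19 UMIs in diabetic and 2 UMIs in control cells, a ratio of 4.62 (1.12 to 40.9). It was no longer called without the cells that had over 1% haemoglobin UMIs, and also not without the deepest cells. Ifit3 had 29 and 4 UMIs, a ratio of 3.53 (1.24 to 13.8), but 1 diabetic cell held 65.5% of the diabetic UMIs, and the ratio was 1.62 without the fullest cell of each library. Isg15 had 19.4 and 15.4 CPM in these cells, far under its EC levels.

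The more abundant members were better measured in smooth muscle. Ifi27 had 426 CPM in diabetic and 406 CPM in control VSMCs-2, a ratio of 1.05 (0.978 to 1.13), and Ifitm3 had 359 and 426 CPM, a ratio of 0.843 (0.785 to 0.906). Bst2 had 44.2 and 69.7 CPM, a ratio of 0.635 (0.524 to 0.769), and Ly6e had 10.1 and 21.6 CPM, a ratio of 0.470 (0.322 to 0.687). In VSMCs-1, where 11 members had enough UMIs, none was called higher beside 2.54% of all genes, and Ifi27l2a and Ly6e were called lower beside 3.77%. Ifi27l2a had 215 CPM in diabetic and 806 CPM in control VSMCs-1, yet 1 control cell held 93.5% of the control UMIs, and the ratio of 0.267 became 2.59 without the fullest cell of each library.

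Fibroblasts had few calls. In Fib-1, 1 of 26 members was called higher, beside 2.76% of all genes, and none lower, beside 3.92%; in Fib-2, none of 30 was called higher, beside 5.19%, and 1 lower, beside 3.69%. The Fib-1 call was Ifit2, with 8 UMIs in diabetic and 3 UMIs in control cells, and the Fib-2 call was Ifit3b, with 8.98 and 20.6 CPM, of which 1 control cell held 45.3% of the control UMIs. Ifitm3 was close to equal in both classes, at 2173 CPM in diabetic and 2144 CPM in control Fib-1 and at 2219 and 2236 CPM in Fib-2. The GTPase sum was lower in diabetic Fib-2, at 148 CPM against 183 CPM in control cells, a ratio of 0.805 (0.702 to 0.923).

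Fib-3, with 67 diabetic and 117 control cells, had no member called higher, beside 3.53% of all genes, and 3 of 22 called lower, beside 4.39%. Bst2 had 111 CPM in diabetic and 241 CPM in control cells, Ifi35 had 35.3 and 80.8 CPM, and Ifi203 had 17.6 and 41.8 CPM. Ifi203 was not called with totals without mitochondrial, ribosomal protein and haemoglobin genes, or without cells over 1% haemoglobin UMIs. It was also not called without the tenth of cells with most markers of other types. Macrophage markers summed to 30.2 CPM in diabetic and 394 CPM in control Fib-3. Smooth muscle (310 and 183 CPM) and erythroid markers (20507 and 113 CPM) went the other way. Here 17 of 22 ratios were below 1, with a median log2 ratio of -0.65 against -0.05 over all genes. The GTPase sum was 73.0 CPM in diabetic and 120 CPM in control Fib-3, a ratio of 0.609 (0.386 to 0.938). The small number of cells limits every value of this class.

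The small immune classes are given as levels. Monocytes had the highest summed level, 10209 CPM in 19 diabetic and 11144 CPM in 9 control cells, made mostly of Ifitm3 (4903 and 5843 CPM) and Ifi27l2a (2696 and 2327 CPM). Their core sums, 720 CPM in diabetic and 517 CPM in control cells, were also the highest of any class. Irf7 had 281 CPM from 23 UMIs in diabetic monocytes, its highest diabetic level, and 155 CPM from only 6 UMIs in control monocytes. In monocyte-derived dendritic cells the core list had 486 CPM from 108 UMIs in 30 diabetic cells and 129 CPM from 25 UMIs in 27 control cells, with 37 and 6 UMIs of Isg15. A single diabetic dendritic cell held 58.8% of the core UMIs left after thinning.

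Lymphocytes were led by Ly6e. It had 1447 CPM in diabetic and 1394 CPM in control T cells, 2152 and 1766 CPM in NKT cells, and 1714 and 2013 CPM in B cells. Ifi27l2a came next in B cells with 755 CPM in diabetic and 284 CPM in control cells. The core list summed to 180 CPM in 60 diabetic and 354 CPM in 13 control T cells and to 208 and 221 CPM in NKT cells. Foam cells, 17 diabetic and 35 control, had core sums of 84.8 and 153 CPM.

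The number of cells that carry the response was counted after thinning each cell to 1000 UMIs, which left out shallower cells (8 diabetic and 23 control ECs, 30 and 13 macrophages). At least 1 of the 16 core genes was seen in 100 of 220 diabetic ECs (45.5%) and 80 of 343 control ECs (23.3%), a difference of 22.1 percentage points (Newcombe 95% interval 14.1 to 29.9). Without thinning the shares were 72.4% of 228 and 46.4% of 366 cells. In macrophages the thinned shares were 30.7% and 29.6%, and in VSMCs-2 they were 3.86% and 4.64%. The macrophage, fibroblast and EC shares were above those of VSMCs-2, which read free RNA for droplets of its depth only and set no upper limit for other classes. The fibroblast shares were 17.0% and 16.7% in Fib-1, 15.8% and 18.5% in Fib-2 and 11.9% and 16.2% in Fib-3. Haemoglobin-rich barcodes without a class held at least 1 core gene in 78 of 487 diabetic and 5 of 28 control cases after thinning. Their shares were close to or above those of the fibroblasts and below those of macrophages and ECs. The part of free RNA in the shares of these classes was not tested.

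Cells with several core genes at once were few. Ifit3 and Ifit3b, whose split of reads is uncertain, count as 2 separate genes in these shares. At least 3 core genes were seen in 32 of 2348 diabetic cells (1.36%) and 44 of 2885 control cells (1.53%), a difference of -0.162 points (-0.813 to 0.514). In ECs there were 9 such cells (4.09%) in the diabetic and 8 (2.33%) in the control library, a difference of 1.76 points (-1.17 to 5.44). That value depended on depth. Thinned to 2000 UMIs it was 27 of 189 against 17 of 259 cells, a difference of 7.72 points (2.07 to 13.9). Without thinning the difference was 16.3 points, and thinned to 500 UMIs it was 0.496 points (-1.29 to 3.03). With the bar at 2 genes there were 29 diabetic ECs (13.2%) and 19 control ECs (5.54%), a difference of 7.64 points (2.80 to 13.1). With the bar at 4 genes the difference was 0.0689 points (-2.23 to 2.99). In macrophages 12 of 199 diabetic (6.03%) and 12 of 497 control cells (2.41%) carried 3 or more, but a second random thinning gave a difference of 1.61 points (-1.03 to 5.46) in place of 3.62, and without thinning it was -2.76.

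After thinning, 100 diabetic ECs held 171 core UMIs and 80 control ECs held 156. A single control cell held 22 of these, 14.1% of the control UMIs, and the fullest diabetic cell held 9, or 5.26%. Without Irf7 in the list, 40.5% of diabetic and 21.9% of control ECs still held a core gene, a difference of 18.6 points (10.8 to 26.3). The sum without Irf7 had a ratio of 1.28 (1.13 to 1.45).

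**Figure D4:**
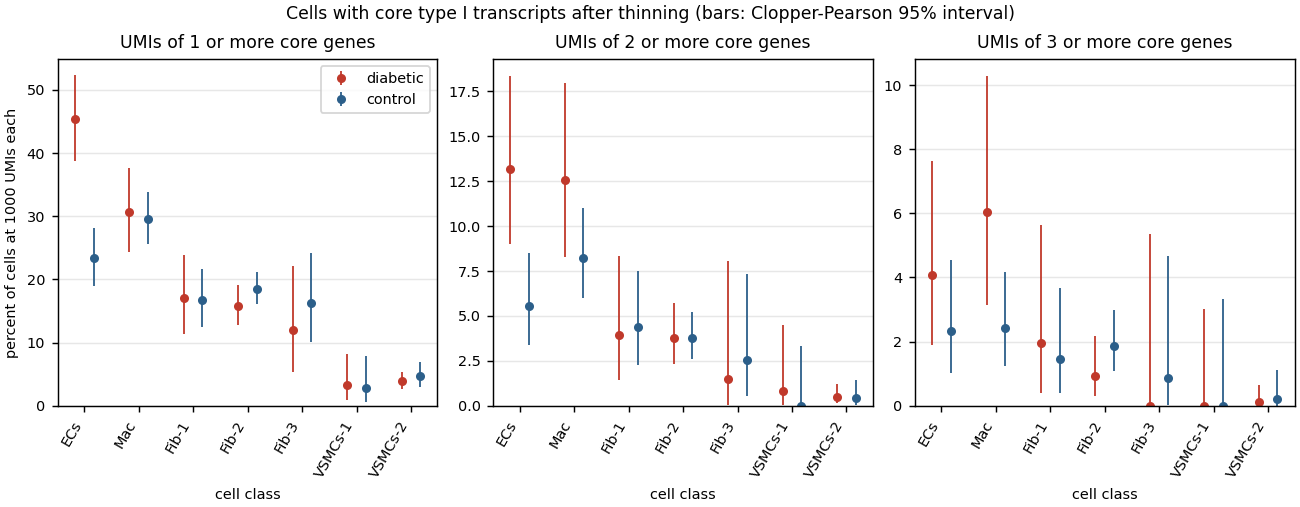
Percent of cells with UMIs of at least 1, 2 or 3 of the 16 core genes after thinning to 1000 UMIs per cell, by class, with the diabetic library left of the control library and Clopper-Pearson 95% intervals. Diabetic ECs stand at 45.5% for at least 1 gene against 23.3% of control ECs, while the macrophage shares for at least 1 gene are 30.7% and 29.6%.

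Over all classes together, a GTPase UMI was found in 46.9% of the 32 diabetic and 47.7% of the 44 control cells with at least 3 core genes, against 8.05% and 11.8% of the cells with none. This comparison mixes classes. Within ECs, a GTPase UMI was found in 5 of 9 diabetic and 6 of 8 control cells with at least 3 core genes, in 41.8% and 34.7% of those with 1 or 2, and in 25.0% and 37.3% of those with none. In macrophages it was found in 4 of 12 diabetic and 2 of 12 control cells with at least 3 core genes. With 1 or 2 core genes the macrophage shares were 8.16% and 10.4%, and with none they were 11.6% and 8.86%. The share in diabetic macrophages thus did not rise at 1 or 2 core genes, and the cells with at least 3 are few. At least 2 GTPases were seen in 8.64% of diabetic and 13.4% of control ECs, a difference of -4.77 points (-9.81 to 0.715).

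Of the pathway upstream, the ligands were scarcely detected in either library. Ifnb1, the interferon beta gene, had 0 UMIs in diabetic and 12 UMIs in 5 control cells, of which 1 cell held 66.7%, and 11 of the 12 were in macrophages. With the diabetic count at the 3 UMIs that a count of 0 allows, its ratio was at most 0.262. Ifng, the interferon gamma gene, had 1 UMI in diabetic and 4 UMIs in control cells. The alpha and lambda interferon genes on the list were not analysed here. None of the 5 measured receptor genes was called in ECs, where Ifnar1 had a ratio of 1.5 (0.83 to 2.74).

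Of 4 inhibitors of cytokine signalling measured in ECs, 2 were called higher in the diabetic library, beside 4.11% of all genes. Socs1, which blocks the receptor kinases and is induced by interferons, had 14 UMIs in diabetic and 6 UMIs in control ECs, a ratio of 2.99, and Socs3 had a ratio of 1.96 (1.45 to 2.66). Socs1 was also called higher over all annotated cells, with a ratio of 2.17 (1.67 to 2.83), and in VSMCs-2, Fib-1 and Fib-2. The inhibitor Usp18, a member that removes Isg15 from proteins and quiets the receptor, was not called in ECs, with 11.7 CPM in diabetic and 14.6 CPM in control cells. Among 20 other interferon-induced genes measured in ECs only the chemokine gene Cxcl10 was called higher, a share near the 4.11% of all genes, with 32 UMIs in diabetic and 11 UMIs in control cells, a ratio of 3.72 (1.83 to 8.19). In macrophages 1 of 26 such genes was called higher (Phf11b) and 4 lower (Ifi204, Ifi211, Slfn2 and Samd9l), beside 8.16% and 4.54% of all genes, the 4 with ratios between 0.56 and 0.64.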

How the data were processed

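Aortic cells were profiled with the 10x Genomics 3′ v2 chemistry, with 1 library of 4 pooled mice per group. The authors deposited matrices of raw UMI counts per gene and barcode, and a class label for part of the barcodes; Cell Ranger 3.1.0, Partek and the mm10 build are named in the submitters' processing notes, while none of the sources used here gives the gene annotation. The 34 members, the role lists, the marker lists and the comparisons were chosen with earlier results of these data known.

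Counts were summed per class and library and divided by the class's total UMIs (CPM). Ratios of diabetic to control CPM have the exact conditional binomial 95% interval, levels the exact Poisson interval, shares the Clopper-Pearson interval and differences of shares the Newcombe interval, all for counting error only. UMIs remove most PCR copies, but pooled mice cannot be told apart, so animal variation is not measured and no p-value is given. A call needed a 1.5-fold ratio, an interval excluding 1 and at least 10 UMIs over the 2 libraries; ratios were made in 7 of the 13 classes, those with at least 50 cells in each library. Named members are those called with at least 30 UMIs or among the 3 with most UMIs in a compared class, and the 3 highest in smaller classes; others were named after their values were seen. Cells were thinned to 1000 UMIs (seed 1) for shares. Red-cell barcodes are those with over 50% haemoglobin UMIs; these had no class. Doublets were sought with Scrublet in scanpy 1.11.5 at an expected rate of 0.05, which marked 7 diabetic and 6 control barcodes, too few to count as a working filter, so none was removed. On simulated counts the ratio lay in its interval for 95.9% of 9200 genes in ECs and 96.5% of 10074 genes in Mac. A 2-fold change was called in 88% and 86% of cases and a 1.5-fold change in 41% and 33%. These changes were planted only in genes with at least 30 UMIs, so the shares do not cover members with fewer. Of unchanged genes, 3.14% and 2.34% were called. Alternatives changed the scaling (edgeR 4.0.16 TMM; totals without mitochondrial, ribosomal protein and haemoglobin genes), the weight per cell, the cells kept, the thresholds and the thinning. Promoters came from RefSeq tables on GRCm38.p6. Work used numpy 2.4.6, scipy 1.17.1, pandas 2.3.3, biopython 1.88 and matplotlib 3.10.9. One pathway gene outside the 34 members is not reported here.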

Additional observations from a re-analysis of the deposited data

Results flagged for a closer look

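Ifi27l2a differed in opposite directions in 2 classes. Its ratio of diabetic to control CPM was 1.93 in ECs and 0.267 in VSMCs-1, and the difference between the classes was not tested. In VSMCs-1 a single control cell gave 93.5% of that library's Ifi27l2a UMIs.

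Barcodes without a class that had over 50% haemoglobin UMIs held interferon response RNA as well. Among their UMIs outside haemoglobin, the 487 diabetic barcodes had 4940 CPM of Isg15, 1117 CPM of Irf7 and 3180 CPM of Rsad2, and the 29 control barcodes had 10001, 889 and 4556 CPM. The annotated cells had 55.4 CPM of Isg15 in the diabetic and 63.5 CPM in the control library. The 8 GTPases had 2 UMIs in the diabetic and 2 UMIs in the control barcodes. Haemoglobin RNA in a class may have brought these genes along in the ratio seen in such barcodes, which was not tested. In ECs that ratio would account for 0.982 of 145 Isg15 UMIs in diabetic and 3.9 of 136 in control cells. For Irf7 it would account for 0.222 of 76 and 0.347 of 26 UMIs, and for Rsad2 for 0.632 of 28 and 1.78 of 5. In diabetic VSMCs-2 it would account for 10.0 of 111 Isg15, 2.26 of 19 Irf7 and 6.44 of 11 Rsad2 UMIs. In control VSMCs-2 it would account for 0.145 of 43, 0.0129 of 2 and 0.0659 of 2 UMIs.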

How the results depend on the processing

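The counts of called members depended on the rule and the cells more than the sums did. With 1.5-fold alone, members called higher numbered 1 over all annotated cells, 5 in VSMCs-2, 3 in VSMCs-1, 4 in Fib-1, 1 in Fib-2 and 1 in Fib-3, and members called lower 4 in Fib-1, 2 in Fib-2, 11 in Fib-3, 3 in ECs and 2 in Mac. With equal weight per cell and 1.5-fold alone, members higher numbered 3 over all cells, 4 in VSMCs-2, 4 in VSMCs-1, 4 in Fib-1, 1 in Fib-2, 1 in Fib-3 and 9 in Mac, and members lower 6 over all cells, 10 in Fib-1, 2 in Fib-2, 10 in Fib-3, 2 in ECs and 4 in Mac. The 12 members lower over all cells became 7 with totals without mitochondrial, ribosomal protein and haemoglobin genes, 2 at 2-fold and 2 without cells with markers of other types. That last filter also turned Gbp7 to a ratio of 1.96; only 13 of the 34 members had enough UMIs under it, so these values are not comparable with the others, and it was not run in single classes because under 20 diabetic cells were left in each. TMM scaling gave 4 members lower in Mac, and 2-fold gave 0. Without the deepest cells 1 member was higher in VSMCs-2, 2 were higher in Fib-1, and 2 were lower in Fib-2 and in Mac. Without cells over 1% haemoglobin UMIs, a choice made after seeing the data, 1 was higher in VSMCs-2, 2 in Fib-1, and 2 were lower in Fib-2. Without the tenth of cells with most markers of other types, also chosen after seeing the data, 1 was higher in VSMCs-2 and in VSMCs-1. In that setting 1 was lower in VSMCs-1, 3 in Fib-2 and 2 in ECs. It also gave 15 lower over all cells, 2 lower in VSMCs-2 and in Fib-3, and 5 higher in ECs and 3 in Mac. The 1 call in Fib-1 was then Gbp2 in place of Ifit2. A minimum of 30 UMIs left 1 higher in VSMCs-2, 1 lower in VSMCs-1 and 0 higher in Fib-1, where the changed totals gave 2.

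The core ratio in ECs was 1.68 with equal weight per cell and 1.60 without the fullest cell of each library, and that in Mac 1.64 with equal weight. The pooled GTPase ratio was 0.666 with TMM and 0.650 without the marker-rich cells, that of Fib-3 was 0.659 with the changed totals, and the sum in VSMCs-1 without Ifitm3, Ly6e and Bst2 was 0.619. Ifi27l2a in VSMCs-1 turned to 5.62 without those marker-rich cells, 1.09 with equal weight and 2.59 without the fullest cell of each library. The difference in cells with 3 or more core genes in ECs was 7.64 points for 2 or more genes, 7.72 at 2000 UMIs and 16.3 without thinning. It was smaller, at 0.0689 points for 4 or more genes and 0.496 at 500 UMIs. In Mac it was 4.31 for 2 or more genes, 1.61 for 4 or more, 0.736 at 2000 and 1.11 at 500 UMIs, 1.61 with another thinning seed, and it turned to -2.76 without thinning and -1.83 with 31 members in the list. With 31 members it was -2.94 over all cells and -9.84 in Fib-3. Except for the removed cells, whose absence is the change itself, the cause was not tested.

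No paired analysis was possible because each group is 1 library. Depth limits the inducible genes: many calls rest on fewer than 30 UMIs in a library, and variation between mice could not be read from pooled animals.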
